A study of Schizosaccharomyces pombe with 12 samples.

Results

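The LatA response of fission yeast lacking *set3* was compared with that of wild-type cells, gene by gene. For each probe set the response of a strain was its mean level with LatA minus its mean level with DMSO, and the quantity described here is the *set3Δ* response minus the wild-type response. All 12 arrays of the series enter this difference, and all 4880 *S. pombe* probe sets were measured and tested, of which 3917 could be named with 1 gene. Positive differences therefore mean a more positive response in *set3Δ*, and negative differences a more negative one.

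Total RNA of *Schizosaccharomyces pombe* was hybridized to Affymetrix Yeast Genome 2.0 arrays in 4 groups of 3: each of the strains, wild type and *set3Δ*, with each of the treatments, DMSO and LatA. Wild type carried the markers *ura4-D18*, *leu1-32* and *ade6-216*, and *set3Δ* carried the same markers with *set3* replaced by KanMX. Cells were grown in the rich medium YES and treated at 30°C for 3 hours with the solvent DMSO or with LatA, at 0.5 mM by the labels, a dose that the methods give in µM. The replicates were called biological, but the sources do not say how the cultures were separated, so the p-values measure the spread between these arrays, and *set3Δ* was represented by a single strain.

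Latrunculin A (LatA) binds actin monomers, and at low doses it disturbs the actomyosin ring that divides the fission yeast cell. Set3p, Snt1p, Hif2p and the deacetylase Hos2p form a histone deacetylase complex, a class of enzymes that removes acetyl groups from histone tails. Many kinds of stress change a shared set of fission yeast genes, the core environmental stress response (CESR), in which stress-induced genes (CESR-UP) rise while genes of growth, many of them for ribosome assembly (CESR-DN), fall.

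The level of *set3* itself checked the strain labels. On the deposited scale, log2 values centred on each probe set's median over the arrays, the 6 wild-type arrays read from 1.97 to 2.31 for *set3* and the 6 *set3Δ* arrays from -2.59 to -1.97. The M-cell genes *mat3-Mc*, a mating-type gene, and *mfm2*, a pheromone precursor gene, had gaps (*set3Δ* minus wild type) of -5.55 and -4.62 with DMSO and of -6.53 and -5.58 with LatA. The median gaps of the 11 M-cell probe sets were smaller, at -0.61 with DMSO and -0.24 with LatA. Those of the 4 probe sets of P cells, the other mating type, were 0.02 and 0.04. A strain table lists a matching wild type and *set3Δ* with opposite mating types, so genotype and mating type cannot be told apart where genes respond to either. Batches and scan times are not given in the sources used here. The median difference over all probe sets was 0.03, and the median standard error of a difference was 0.12.

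In both strains LatA changed many transcripts, and the responses of *set3Δ* were on the whole smaller. LatA changed 730 probe sets in wild type (15% of those tested) and 233 in *set3Δ* (4.77%) at a limma adjusted p below 0.05 and a fold above 1.5. The median absolute response was 0.23 in wild type and 0.15 in *set3Δ*, and 3340 of the 4880 probe sets had the smaller response in *set3Δ*. Across probe sets, which are not independent of each other, the responses of the strains had a Pearson r of 0.66 and a Spearman rho of 0.71. A transcript that passed in only 1 strain is not thereby shown to differ between them, so the difference itself was tested.

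**Figure D1:**
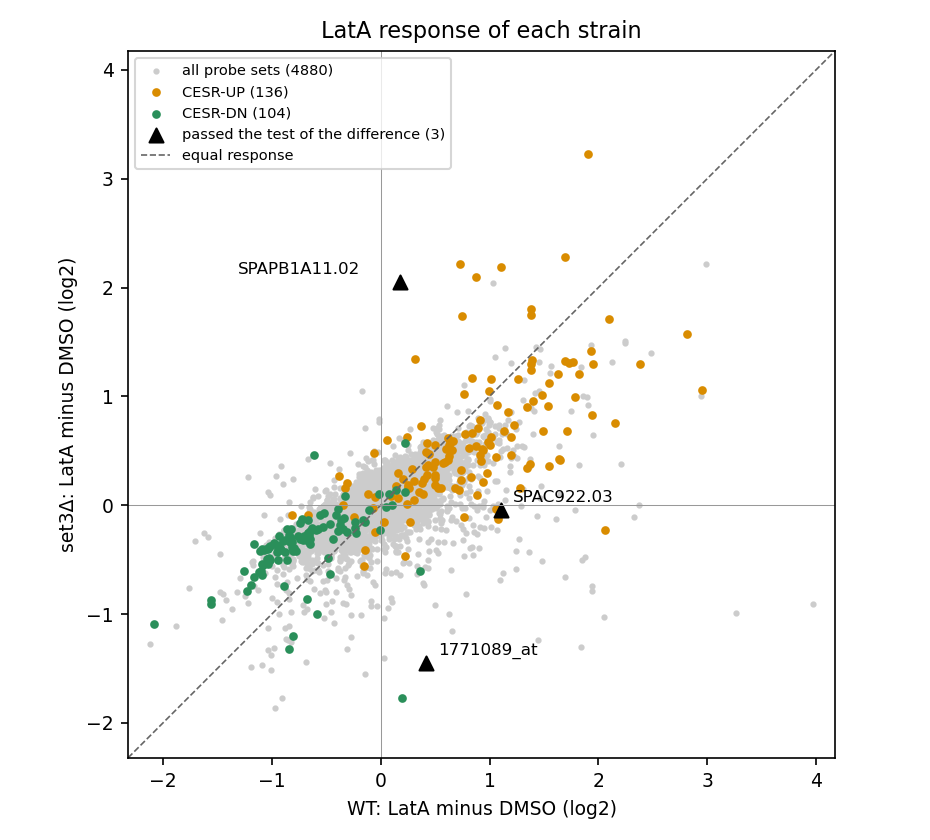
LatA response (log2, LatA minus DMSO) of each of the 4880 probe sets in wild type (horizontal axis) and *set3Δ* (vertical axis), with CESR-UP genes in orange and CESR-DN genes in green. The dashed line marks equal responses, and triangles mark the 3 probe sets whose responses differed between the strains.

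Few single transcripts passed that test. The response differed between the strains for 3 probe sets, 0.0615% of those tested, at an adjusted p below 0.05 (limma, Benjamini-Hochberg adjustment) and a fold above 1.5. Of these 1 was above 0 (0.0205%) and 2 were below 0 (0.041%). With each probe set's own variance none passed (184 at an unadjusted p below 0.05 with a fold above 1.5), and leaving out 1 array at a time gave between 0 and 260 calls, the latter without wild-type DMSO replicate 1. At an unadjusted p below 0.05, 986 probe sets (20.2%) had a difference, and 219 of them (4.49%) also exceeded a fold of 1.5, with 69 above 0 (1.41%) and 150 below (3.07%). These 219, called here the candidate differences, did not pass the adjustment apart from the 3, and they serve below as the background against which gene groups are read. Gene lists and their members were chosen with earlier results of these data known, so shares set against this background are descriptions only.

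SPAPB1A11.02, annotated as a predicted esterase or lipase, responded to LatA in *set3Δ* and not measurably in wild type. Its wild-type array values were -0.38, -0.16 and -0.06 with DMSO and -0.18, 0.08 and 0.04 with LatA. In *set3Δ* they were -0.38, 0.02 and -0.02 with DMSO and 2.12, 1.49 and 2.16 with LatA. The 3 *set3Δ* arrays with LatA thus lay above the other 9. The response was 2.05 in *set3Δ* and 0.18 in wild type, a difference of 1.87 (standard error 0.25, limma adjusted p = 0.0389).

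SPAC922.03, annotated as a predicted 1-aminocyclopropane-1-carboxylate deaminase, behaved the other way. Its wild-type values were 0.03, -0.10 and -0.24 with DMSO and 1.07, 0.92 and 1.01 with LatA. All *set3Δ* arrays stayed near the wild-type DMSO level, at -0.03, -0.16 and 0.21 with DMSO and -0.07, -0.14 and 0.09 with LatA. The transcript rose by 1.10 in wild type, the response of *set3Δ* was -0.05, and the difference was -1.15 (standard error 0.15, limma adjusted p = 0.0308).

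The third probe set, 1771089_at, has no gene name here. It lay at -0.46, -0.05 and -0.18 in wild type with DMSO and at 0.27, 0.05 and 0.22 with LatA, against 0.76, 1.16 and 1.06 in *set3Δ* with DMSO and -0.75, -0.44 and -0.19 with LatA. The order of the strains turned around with the drug: *set3Δ* was higher by 1.23 with DMSO and lower by 0.64 with LatA. It fell by 1.45 in *set3Δ* and had a response of 0.42 in wild type, a difference of -1.87 (standard error 0.22, limma adjusted p = 0.0308). All 3 probe sets kept their direction when any 1 array was left out, but SPAPB1A11.02 stayed below an adjusted p of 0.05 in 3 of these 12 fits, SPAC922.03 in 4 and 1771089_at in 4. Each was called without wild-type DMSO replicate 1 and without *set3Δ* LatA replicate 3; SPAPB1A11.02 was also called without *set3Δ* LatA replicate 2, the others without wild-type DMSO replicate 3, SPAC922.03 without *set3Δ* DMSO replicate 2 and 1771089_at without *set3Δ* DMSO replicate 1. The adjusted p then ranged from 0.00596 to 0.15 for SPAPB1A11.02, from 0.00624 to 0.148 for SPAC922.03 and from 0.00315 to 0.0963 for 1771089_at.

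**Figure D2:**
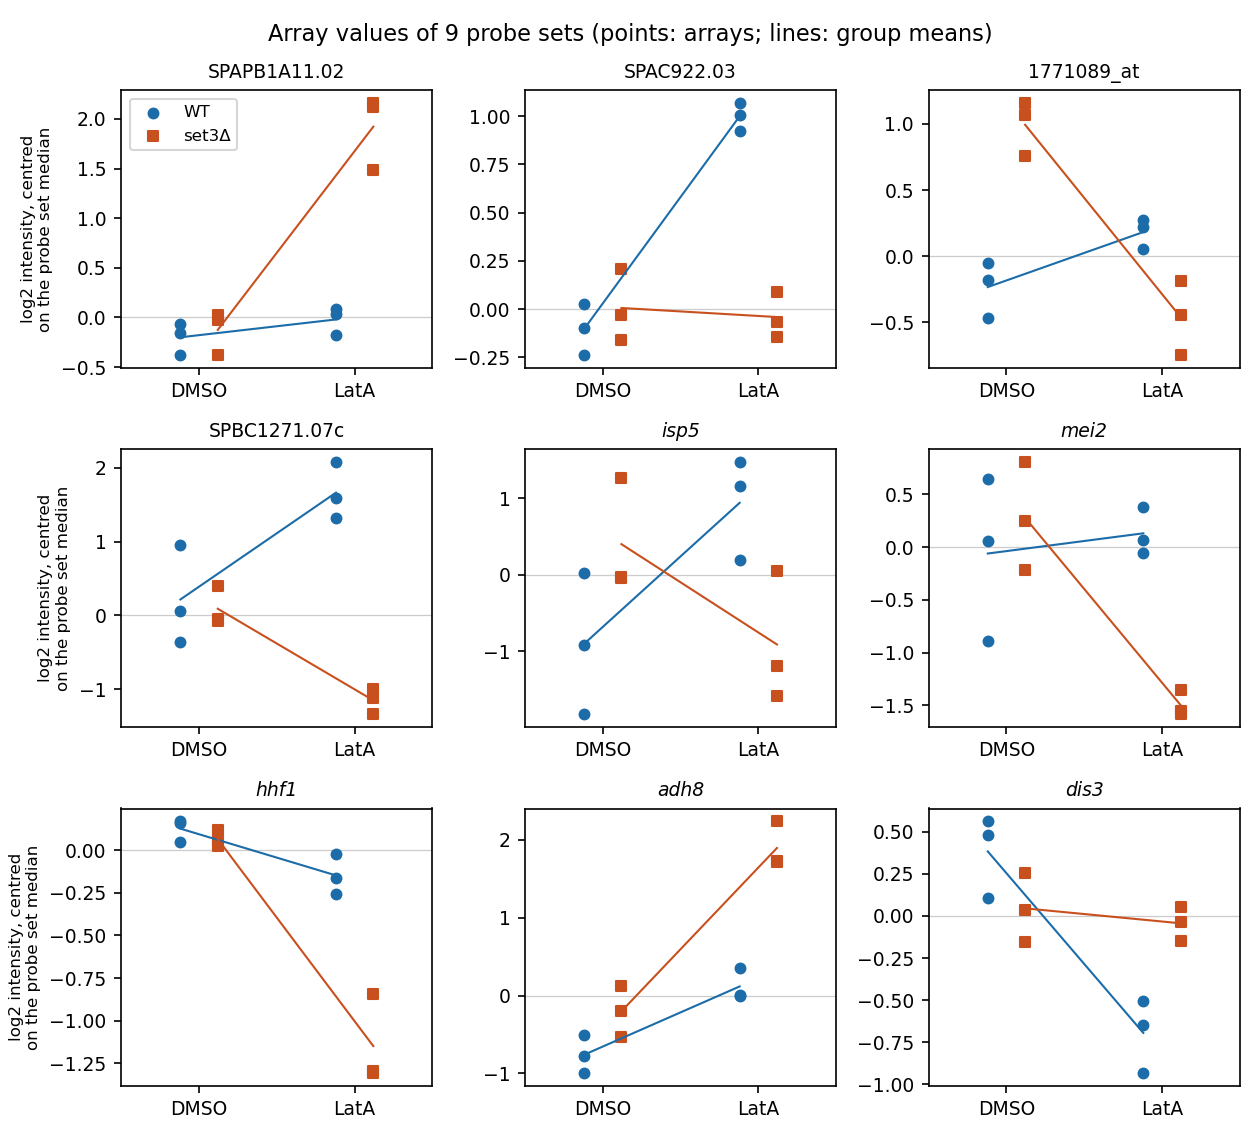
Array values of 9 probe sets (log2 intensity centred on the probe set median) with DMSO and LatA, wild type as blue circles and *set3Δ* as orange squares, and lines between group means. SPAPB1A11.02 rises in the orange arrays and SPAC922.03 in the blue ones, while 1771089_at starts higher and ends lower in *set3Δ*; the other 6 did not pass the test of the difference.

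The candidate differences fell into a few shapes. The response was smaller in *set3Δ*, whatever its sign, in 175 of the 219 (79.9%), against 3340 of all 4880 probe sets. It had the same sign in both strains and was smaller in *set3Δ* in 90 (41.1%), the same sign and larger in 15 (6.85%), and opposite signs in 114 (52.1%). Only 12 of those with opposite signs had a response at an unadjusted p below 0.05 in each strain. The LatA minus DMSO differences between single arrays, 9 in each strain, did not overlap between the strains for 122 of the 219, against 488 (10%) of all probe sets. The candidates were chosen by a test of the same values, so neither this larger share nor that of smaller responses in *set3Δ* is separate evidence.

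The same difference can arise from a gap between the strains with DMSO, with LatA or with both. The gap was larger with DMSO than with LatA in 119 candidates and larger with LatA in 100. Among the 175 with the smaller response in *set3Δ*, 109 had the larger gap with DMSO and 66 with LatA. Of the 44 others, 34 had the larger gap with LatA. For the larger groups below the median gap with each treatment is given as *set3Δ* minus wild type.

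**Figure D3:**
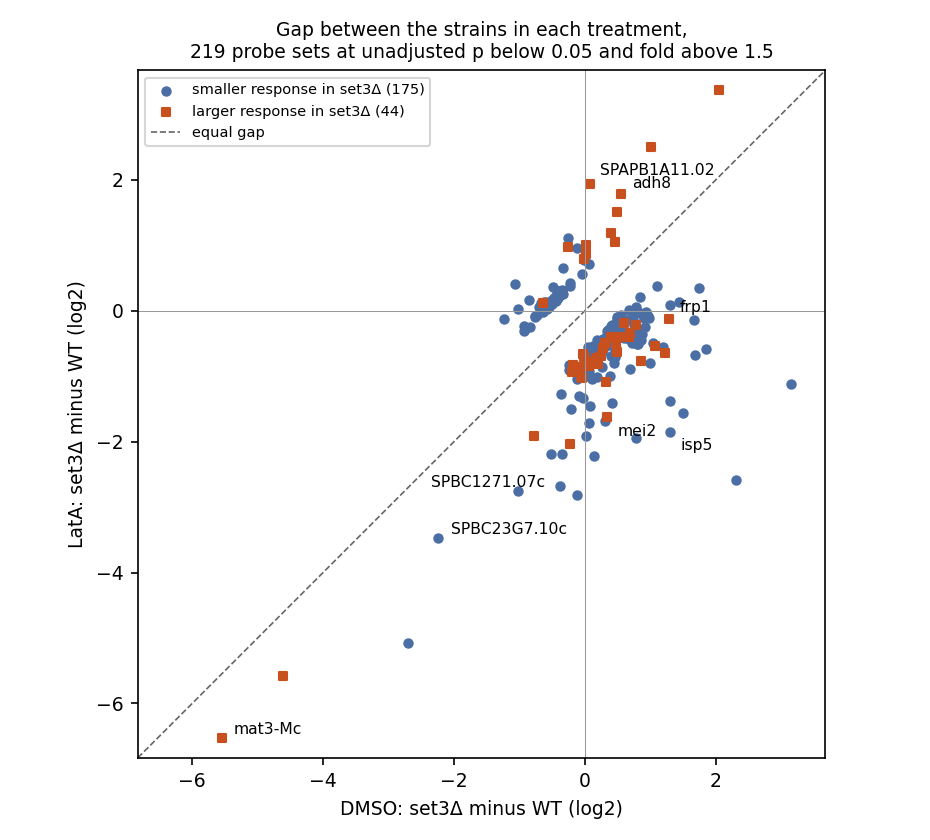
Level of *set3Δ* minus wild type (log2) with DMSO (horizontal axis) and with LatA (vertical axis) for the 219 probe sets at an unadjusted p below 0.05 and a fold above 1.5. Blue circles mark the 175 with the smaller response in *set3Δ* and orange squares the other 44, and the dashed line marks equal gaps.

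Several transcripts rose with LatA in wild type and did not pass as changed in *set3Δ*. Among the amino acid permeases, which import amino acids and are regulated by nitrogen supply, 4 of 10 were candidates with a lower response in *set3Δ* (40%, against 3.07% of all probe sets), and none was called. The *isp5* gene, encoding a permease induced during sexual differentiation, had wild-type values of 0.02, -0.91 and -1.82 with DMSO and 1.47, 1.15 and 0.19 with LatA. In *set3Δ* they were -0.02, -0.04 and 1.26 with DMSO and -1.58, -1.19 and 0.04 with LatA. The arrays of each group spread widely, yet every array difference of *set3Δ* lay below every one of wild type. *isp5* rose by 1.84 in wild type (limma adjusted p = 0.0248) and its response in *set3Δ* was -1.31 (adjusted p = 0.127), a difference of -3.15 (standard error 0.83, adjusted p = 0.134). The permease genes *meu22* and SPCPB1C11.02 also rose in wild type, by 0.85 and 1.78, with responses of -0.25 and -0.04 in *set3Δ*. The difference was -0.66 for *agp3* (adjusted p = 0.097 from limma). For *per1* and *isp4*, by contrast, the differences were -0.17 and 0.0009 (95% confidence intervals from -0.84 to 0.50 and from -0.63 to 0.63). The median difference of the 10 was -0.45, and over left-out arrays it ranged from -0.72 without *set3Δ* LatA replicate 3 to -0.35 without *set3Δ* LatA replicate 1. Their median gap was 0.0031 with DMSO and -0.32 with LatA.

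Other named transcripts also rose in wild type and did not pass in *set3Δ*. SPBC8E4.03, a predicted agmatinase, rose by 1.36 in wild type and had a response of -0.43 in *set3Δ* (difference -1.79, standard error 0.32, limma adjusted p = 0.0821). SPAC186.03, annotated as an L-asparaginase, rose by 0.69 in wild type, with a response of -0.14 in *set3Δ*. The gluconeogenic gene *fbp1*, encoding fructose-1,6-bisphosphatase and repressed by glucose, had wild-type values of -0.31, -1.29 and -1.82 with DMSO and 0.21, 0.25 and 0.43 with LatA. In *set3Δ* its values were 0.05, -0.44 and 0.11 with DMSO and 0.01, -0.01 and -0.57 with LatA. It rose by 1.44 in wild type, and its response in *set3Δ* was -0.10 (difference -1.53, limma adjusted p = 0.15). Members of the cAMP pathway that regulates it differed in direction: *cgs1*, the regulatory subunit of protein kinase A, had a difference of -0.87, while *gpa2*, the G-protein alpha subunit of glucose sensing, had one of 0.68 and fell by 0.94 in wild type. Over the 21 probe sets of hexose transport and glucose repression the differences were 12 above and 9 below 0, with a median of 0.01.

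Large differences were also measured for some genes of less certain role. SPBC1271.07c, a predicted N-acetyltransferase, had wild-type values of 0.96, 0.05 and -0.37 with DMSO and 1.32, 1.59 and 2.08 with LatA. With DMSO the *set3Δ* arrays read 0.40, -0.08 and -0.05, and with LatA -1.13, -1.34 and -0.996. The 3 *set3Δ* arrays with LatA were the lowest of the 12 and the wild-type arrays with LatA the highest. It rose by 1.45 in wild type and fell by 1.24 in *set3Δ*, and the difference of -2.69 (standard error 0.44) had a limma adjusted p of 0.0563. SPBC1271.08c, named from the same cosmid, rose by 2.06 in wild type and had a response of -0.23 in *set3Δ*. SPCC330.03c, of the cytochrome b5 family, rose by 1.94 in wild type (difference -2.73, adjusted p = 0.124). SPBC23G7.10c, a predicted flavin oxidoreductase, rose by 1.65 in wild type, while its response in *set3Δ* was 0.42 (limma adjusted p = 0.0447, with a fold below 1.5). It was already lower in *set3Δ* with DMSO (gap -2.24, against -3.48 with LatA). Its difference of -1.23 had a limma adjusted p of 0.0523, as had those of *ima1* (-1.005), encoding an inner nuclear membrane protein, and of *mpn1* (0.86), encoding a nuclease that trims U6 RNA.

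Genes named from cosmids near the chromosome ends followed. Of 45 such probe sets, 12 were candidates with a lower and 3 with a higher response in *set3Δ* (26.7% and 6.67%, against 3.07% and 1.41% of all probe sets), and the median difference was -0.09 (median gap -0.20 with DMSO and -0.34 with LatA). SPBCPT2R1.02, SPAC750.01 and SPAC977.04 rose with LatA in wild type by 2.05, 2.37 and 1.70 and had responses of -1.03, -0.0017 and -0.66 in *set3Δ*. For SPBCPT2R1.02 the wild-type arrays spread from -3.05 to 0.89 with DMSO and from 0.63 to 0.95 with LatA. Its array differences overlapped between the strains, and its difference of -3.08 was -2.19 without wild-type DMSO replicate 3. For SPAC750.01 the wild-type arrays with DMSO spread from 0.31 to 3.82, *set3Δ* was already lower with DMSO (gap -2.70, against -5.07 with LatA), and the difference of -2.38 was -1.57 without wild-type DMSO replicate 3. The phospholipase gene *plb4* had a difference of -0.97 (limma adjusted p = 0.0938). In the other direction lay both probe sets of the telomere-linked helicase gene *tlh2*, at 1.10 and 0.69. Subtelomeric genes have near-identical copies, and several of these probe sets match more than 1 sequence, so the copies cannot be separated.

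Of 14 genes of entry into meiosis, 10 had differences below 0 and 4 above (44.1% and 55.9% of all probe sets). Of them 5 were candidates with a lower response (35.7%, against 3.07% of all probe sets), and none was called. The array differences of all 5 did not overlap between the strains. They were chosen by a test of the same values, so this is no separate evidence. The strongest was *mei2*, an RNA-binding protein that starts meiosis, with wild-type values of 0.65, 0.06 and -0.89 with DMSO and 0.07, -0.06 and 0.38 with LatA. Its *set3Δ* values were -0.22, 0.25 and 0.81 with DMSO and -1.58, -1.55 and -1.36 with LatA. The 3 *set3Δ* arrays with LatA were thus the lowest, while the remaining 9 overlapped. *mei2* fell by 1.77 in *set3Δ* and its response in wild type was 0.19 (difference -1.97, standard error 0.50, limma adjusted p = 0.128). The differences were -1.63 for the pheromone MAP kinase gene *spk1*, -1.22 for *ste11*, the transcription factor of sexual differentiation (-0.71 without wild-type DMSO replicate 3), -1.06 for *ste4* and -0.70 for *pat1*, the kinase that restrains meiosis.

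The rest of the meiotic list lay nearer to 0. The differences of *mei4*, a meiotic transcription factor, and of *mei3*, an inhibitor of Pat1p, were 0.08 and 0.15 (95% confidence intervals from -0.42 to 0.57 and from -0.34 to 0.63). The median over the list was -0.22 (median gap 0.21 with DMSO and -0.13 with LatA), -0.45 without wild-type DMSO replicate 1 and -0.10 without wild-type LatA replicate 1. Among 11 probe sets of M-cell mating genes, *mfm2* (-0.97) and *mat3-Mc* (-0.98) were candidates below 0 and 1 of 2 *mfm1* probe sets above 0 (0.70, and 0.36 for the other). The array medians of these M-cell genes ranged from -0.02 to 0.83 in wild type and from -0.26 to -0.08 in *set3Δ*, and the part of mating type in these differences was not tested. The 4 P-cell genes measured had a median difference of 0.06. Of 94 probe sets named for meiotic upregulation (*mug* and *meu*), 8 were candidates below 0 (8.51%, against 3.07% of all probe sets). Above 0 there was 1 (1.06%, against 1.41%), and the median difference was 0.0015.

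Core histone transcripts had the more negative LatA response in *set3Δ* in every probe set of the list. All 13 differences were below 0 (44.1% of all probe sets were), with a median of -0.30 (median gap -0.04 with DMSO and -0.31 with LatA). The array differences of *set3Δ* lay wholly below those of wild type in 10 of the 13, against 3.61% of all probe sets. Of the 13, 4 were candidates below 0 (30.8%, against 3.07% of all probe sets). All 4 were probe sets of *hhf1* or *hht1*, so they measured fewer than 4 genes. For *hhf1*, a histone H4 gene, the wild-type values were 0.05, 0.17 and 0.16 with DMSO and -0.17, -0.02 and -0.26 with LatA. In *set3Δ* they were 0.02, 0.12 and 0.05 with DMSO and -1.31, -1.30 and -0.84 with LatA. The strains overlapped with DMSO and not with LatA.

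The *hhf1* transcript fell by 1.21 in *set3Δ* (limma adjusted p = 0.00062), and its response in wild type was -0.27 (adjusted p = 0.0696). The difference of -0.94 (standard error 0.16) had an adjusted p of 0.0821, and a second *hhf1* probe set gave -0.82 (adjusted p = 0.097). Both probe sets of the histone H3 gene *hht1* fell in *set3Δ*, by 0.74 and 0.71, with differences of -0.68 and -0.63 (adjusted p = 0.0523 for each from limma). The differences of the histone H2A and H2B genes were smaller, at -0.30 for *hta1*, -0.27 for *hta2* and -0.30 for *htb1*. That of *hht2*, another H3 gene, was -0.07 (95% confidence interval from -0.19 to 0.06). The H3 and H4 genes are near-identical copies that these probe sets may not separate. Without wild-type DMSO replicate 1 or without *set3Δ* LatA replicate 3, 4 of the 13 passed the test (5.33% and 0.512% of all probe sets did), and none did without wild-type DMSO replicate 2 or *set3Δ* DMSO replicate 2.

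Genes of S phase and of cell separation were examined beside the histones, since both are expressed in particular cell cycle stages. Of 17 genes regulated by MBF, the factor of the G1 to S transition, 11 differences were below 0 and the median was -0.16. It was -0.31 without *set3Δ* LatA replicate 3 and 0.0051 without *set3Δ* LatA replicate 2. The MBF coactivator gene *rep2* was the 1 candidate, with a response of -0.62 in wild type and 0.07 in *set3Δ*. All 9 genes of cell separation controlled by Ace2p had differences below 0 (44.1% of all probe sets were), with a median of -0.38. The median was -0.65 without *set3Δ* LatA replicate 3 and -0.25 without *set3Δ* LatA replicate 2. None was a candidate, and 1 had a difference at an unadjusted p below 0.05. The glucanase genes *eng1* and *agn1*, which dissolve the septum, had responses of -0.85 and -0.80 in wild type and of -1.33 and -1.20 in *set3Δ*. Their list median was -1.08 in each of *set3Δ* LatA replicates 1 and 2 and -0.18 in replicate 3, and between -0.48 and -0.30 in wild type with LatA. The share of cells at each stage was not measured.

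Most iron uptake genes had a more negative LatA response in *set3Δ*, where LatA lowered 4 of them and raised none (2.17% and 2.6% of all probe sets), while in wild type it lowered none and raised 2 (7.23% and 7.73%). Of 10 measured, 9 differences were below 0, and 4 were candidates below 0 (40%, against 3.07% of all probe sets). The ferric reductase gene *frp1* had wild-type values of 0.34, -0.03 and -0.22 with DMSO and 0.25, 0.03 and -0.61 with LatA. Its *set3Δ* values were 1.72, 0.99 and 1.26 with DMSO and -0.27, -0.36 and -0.06 with LatA. The *set3Δ* arrays with DMSO were the 3 highest, and with LatA the strains overlapped. *frp1* fell by 1.55 in *set3Δ* (limma adjusted p = 0.00367), the response of wild type was -0.14, and the difference was -1.41 (standard error 0.34, adjusted p = 0.125).

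The permease gene *fip1*, whose product acts with a ferroxidase, fell by 1.32 in *set3Δ* with a response of -0.31 in wild type (difference -1.01). The genes of siderophore synthesis differed in shape: *sib2* rose by 0.85 in wild type, with a response of -0.46 in *set3Δ*, and *sib1* had responses of 0.74 and -0.03. The repressor gene *fep1* had a difference of 0.08 (95% confidence interval from -0.20 to 0.36). The median over the 10 was -0.64 (median gap 0.59 with DMSO and -0.11 with LatA), and it was -0.38 without *set3Δ* DMSO replicate 1.

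Fewer candidates had the more positive response in *set3Δ* (69, against 150), although over all probe sets 55.9% of the differences were above 0. The alcohol dehydrogenase gene *adh8* had wild-type values of -0.51, -0.78 and -0.996 with DMSO and 0.0018, -0.0018 and 0.35 with LatA, against -0.20, -0.53 and 0.13 and then 1.73, 1.72 and 2.24 in *set3Δ*. LatA raised it in both strains, by 0.88 in wild type and 2.10 in *set3Δ*, a difference of 1.22 (standard error 0.28, limma adjusted p = 0.122). SPAC22A12.17c, a predicted short chain dehydrogenase, likewise rose in both, by 0.74 and 1.74. SPBC24C6.09c, a predicted phosphoketolase, rose by 2.22 in *set3Δ* and had a response of 0.73 in wild type (adjusted p = 0.215); its difference of 1.49 was 0.80 without *set3Δ* DMSO replicate 2. The gene *hsp3103*, of the DJ-1 and Hsp31 family, rose by 1.05 in *set3Δ*, with a response of -0.18 in wild type and a difference of 1.23 (adjusted p = 0.097). The flocculin-like gene *pfl3* fell by 0.61 in wild type and had a response of 0.46 in *set3Δ*. At the strain level, *adh8*, SPAC22A12.17c, *hsp3103* and *pfl3* were higher in *set3Δ* with LatA, by 1.78, 1.01, 0.97 and 0.95, and their gaps with DMSO were 0.56, 0.01, -0.26 and -0.12.

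Genes of ribosome assembly had less negative LatA responses in *set3Δ*. All 77 probe sets of ribosome biogenesis had differences above 0 (55.9% of all probe sets had), with a median of 0.41, and 76 had the smaller response in *set3Δ*. LatA lowered 48 of them in wild type and 3 in *set3Δ*, against 7.23% and 2.17% of all probe sets, with median responses of -0.67 and -0.26 and median gaps of -0.29 with DMSO and 0.14 with LatA. Of the 77, 7 were candidates (9.09%, against 1.41% of all probe sets) and none was called, while the array differences of *set3Δ* lay wholly above those of wild type in 14, against 6.39% of all probe sets. The RNA helicase gene *rrp3* fell by 1.11 in wild type, with a response of -0.42 in *set3Δ*. *nop4*, for a nucleolar protein, and *nob1*, for the nuclease that finishes the small subunit RNA, had differences of 0.69 and 0.65.

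The *dis3* gene, encoding the catalytic nuclease of the exosome, had a response of the same form. Its wild-type values were 0.11, 0.48 and 0.56 with DMSO and -0.50, -0.65 and -0.93 with LatA, against 0.03, 0.26 and -0.16 and then -0.03, -0.15 and 0.05 in *set3Δ*. Wild-type arrays separated by treatment and the *set3Δ* arrays did not. It fell by 1.08 in wild type, the response of *set3Δ* was -0.09, and the difference was 0.99 (standard error 0.21, limma adjusted p = 0.104). The 121 cytosolic ribosomal protein probe sets had 60 differences above and 61 below 0, a median of -0.0001 and no candidate.

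The CESR-DN genes, which include 26 of the ribosome biogenesis probe sets, mostly had differences above 0, and the CESR-UP genes mostly below 0. Of 104 CESR-DN genes 90 had differences above 0 (median 0.43) and 15 were candidates above 0 (14.4%, against 1.41% of all probe sets). The CESR-DN members with a difference below 0 among the candidates were *mei2* and *mfm2*. Of 136 CESR-UP genes 101 had differences below 0 (median -0.20), with 12 candidates below 0 (8.82%, against 3.07%). Another 5 were candidates above 0 (3.68%, against 1.41%), among which were *adh8*, SPAC22A12.17c and SPBC24C6.09c. The array differences of *set3Δ* lay wholly below those of wild type in 2 CESR-UP genes (1.47%, against 3.61% of all probe sets) and wholly above in 6 (4.41%, against 6.39%). No CESR gene was called. The median responses of CESR-UP were 0.77 in wild type and 0.47 in *set3Δ*, and those of CESR-DN were -0.75 and -0.33. The gap of *set3Δ* over wild type with DMSO had a median of 0.45 for CESR-UP and -0.32 for CESR-DN, and with LatA of 0.19 and 0.10.

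**Figure D4:**
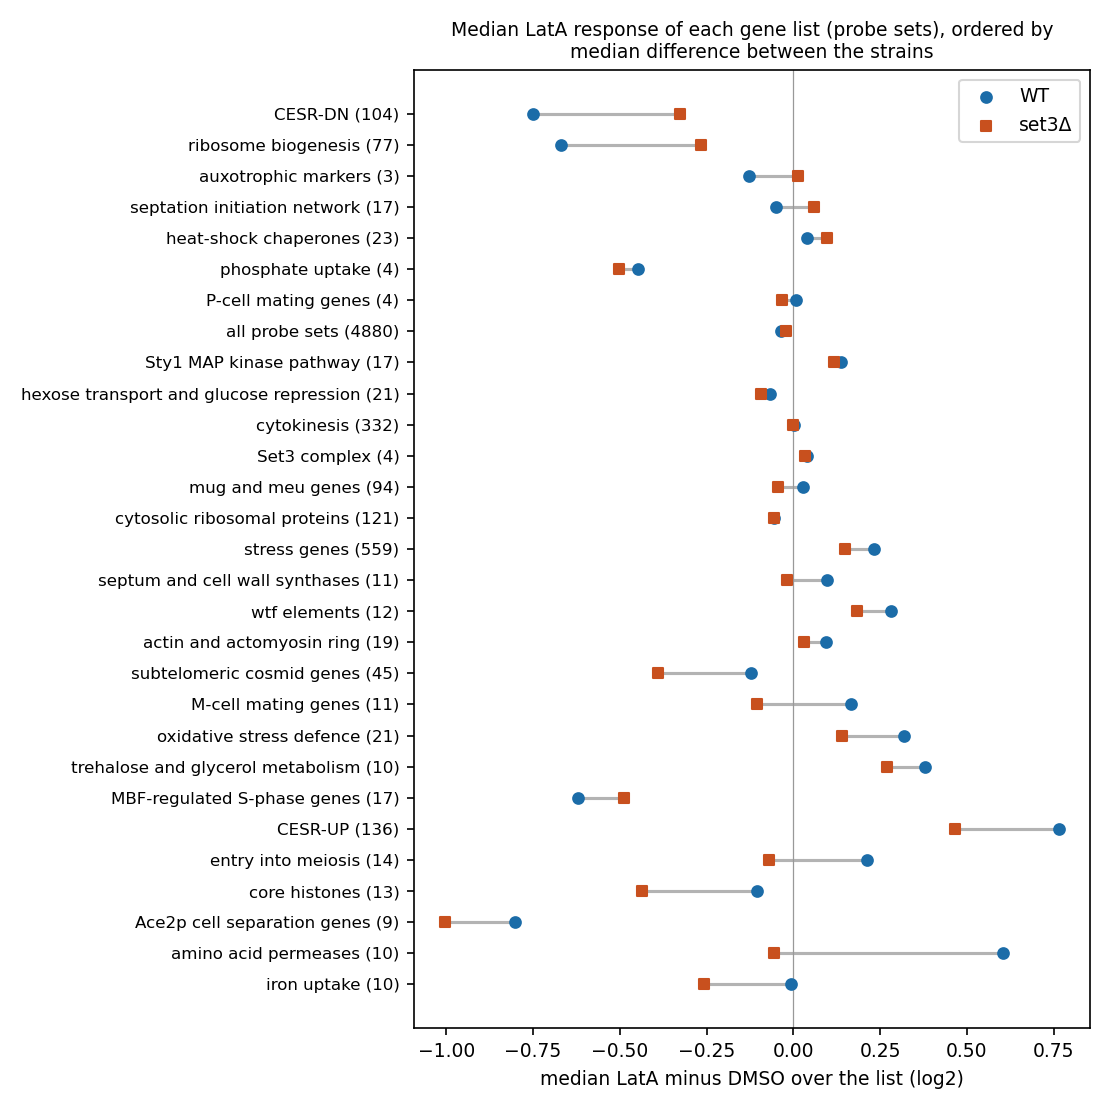
Median LatA response (log2, LatA minus DMSO) of each gene list in wild type (blue circles) and *set3Δ* (orange squares), with the number of probe sets in brackets and lists ordered by their median difference. CESR-DN (-0.75 and -0.33) and ribosome biogenesis lie at the top, and amino acid permeases and iron uptake at the bottom; a list's median difference is not the difference of its 2 medians, and for MBF-regulated genes (median difference -0.16) they differ in sign.

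The size of the CESR difference moved with the arrays used for DMSO. The mean of CESR-UP minus the mean of CESR-DN had a response of 1.52 in wild type and 0.95 in *set3Δ*, a difference of -0.57. The *set3Δ* arrays with DMSO stood at 0.01, -1.06 and -0.04, and the wild-type arrays with DMSO at -0.74, -1.37 and -1.52. Without *set3Δ* DMSO replicate 2 the difference was -0.92, and without replicate 1 it was -0.38. The median of CESR-UP was then -0.43 and -0.07, respectively, and -0.32 without wild-type DMSO replicate 1, -0.13 without wild-type DMSO replicate 3 and -0.12 without *set3Δ* DMSO replicate 3. CESR-DN stayed between 0.34 and 0.55, and ribosome biogenesis between 0.33 and 0.52, over all arrays left out in turn.

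**Figure D5:**
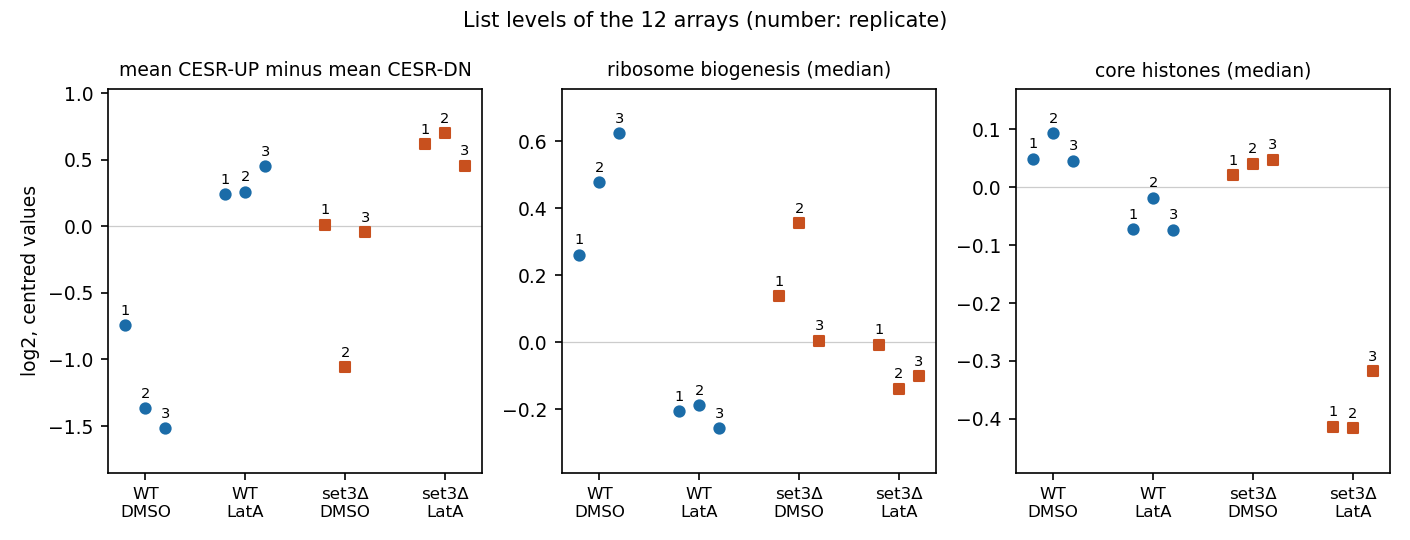
Levels of 3 gene groups in each of the 12 arrays (log2, centred values; numbers are replicates): the mean of CESR-UP minus that of CESR-DN, the median of ribosome biogenesis and the median of core histones. *set3Δ* DMSO replicate 2 lies at -1.06 in the first panel, among the wild-type DMSO arrays, and the *set3Δ* arrays with LatA are the 3 lowest for core histones.

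The wider list of genes annotated to the cellular response to stress, with 559 probe sets and 130 of the CESR-UP genes, had a median difference of -0.06, with 321 below and 238 above 0. Of these 31 were candidates below 0 (5.55%, against 3.07% of all probe sets) and 8 above (1.43%, against 1.41%), and none was called. Its median was 0.02 without *set3Δ* DMSO replicate 1, so its direction rested on that array. The genes of the Sty1p MAP kinase pathway, which drives the CESR, did not share a direction: 10 of 17 were above 0, the median was 0.02 and no candidate was found. The kinase gene *sty1* had a difference of -0.08 (95% confidence interval from -0.31 to 0.14), and its transcription factor genes *atf1* and *pcr1* had differences of -0.26 and -0.51 (from -1.23 to 0.71 and from -1.16 to 0.14). Of 21 oxidative defence genes 17, and of 10 trehalose and glycerol genes 8, were below 0, with medians of -0.10 and -0.12 and no candidate; the latter was 0.0017 without *set3Δ* DMSO replicate 1. Of 23 heat-shock chaperone genes 17 were above 0 (median 0.11, and 0.0049 without *set3Δ* DMSO replicate 2), with *hsp3103* the 1 candidate.

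Genes of the division machinery that LatA acts on had small differences. Of 332 probe sets of cytokinesis genes 172 were above and 160 below 0 (median 0.01). There was 1 candidate above and 6 below 0 (0.301% and 1.81%, against 1.41% and 3.07% of all probe sets), and none was called. Without wild-type DMSO replicate 1, 11 were called (3.31%, against 5.33% of all probe sets), and without *set3Δ* LatA replicate 3, 5 were (1.51%, against 0.512%). Among the candidates were *mug27* (-1.16), encoding a kinase of meiosis, *mbx1* (-1.02), a MADS-box transcription factor gene of the M to G1 transition, and *mat3-Mc*. No candidate was found among 19 actin and ring genes (median -0.08), 17 genes of the septation initiation network (0.11) and 11 septum and cell wall synthases (-0.07). At an unadjusted p below 0.05 there were 1, 2 and 1 of them, with any fold. Actin itself, *act1*, had a difference of -0.06 (95% confidence interval from -0.19 to 0.06), the tropomyosin gene *cdc8* of -0.10 (from -0.32 to 0.12) and the F-BAR gene *cdc15* of -0.13 (from -0.60 to 0.35). The myosin gene *myp2* had the largest difference of the ring list, at -0.72 (from -1.52 to 0.08).

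The other members of the Set3p complex had small differences, at -0.04 for *hos2* (95% confidence interval from -0.28 to 0.20), 0.05 for *hif2* (from -0.14 to 0.24) and 0.10 for *snt1* (from -0.13 to 0.34). *laf1*, encoding a factor associated with another histone deacetylase, Clr6p, fell by 0.85 in wild type and had a response of -0.23 in *set3Δ* (difference 0.62, standard error 0.11, limma adjusted p = 0.0821).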

How the data were processed

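The deposited values were log2 intensities from 12 arrays. Per the labels and methods, the authors normalized the arrays together with RMA (GeneSpring GX 10.0.1), which corrects background, aligns array distributions and summarizes probes. Each row has a median of 0, so values compare arrays within a probe set but not probe sets with each other. Array files before normalization and scan batches were not used here, so the precision is set by the number of arrays, 3 per group.

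Differences of responses were fitted with limma 3.58.1 in R 4.3.3 (1 mean per group, moderated variance, 10 total degrees of freedom), with Benjamini-Hochberg adjustment over 4880 probe sets. A call needed an adjusted p below 0.05 and a fold above 1.5 (0.585 on the log2 scale). Single-strain responses and gaps between strains came from the same fit. The fit was tested on simulated data. Noise there was drawn independently for each probe set and array, so deviations shared by the probe sets of an array were not covered. Figures were drawn with matplotlib 3.10.9.

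Of the probe sets, 2865 were named through the platform annotation and RefSeq symbols, 1052 through target descriptions of the study's supplement only, 19 matched several genes and 944 stayed unnamed. Suffixes of 60 mark probe sets that can match several sequences. CESR, stress and cytokinesis lists came from the study's supplement and the others were written from general knowledge. Members and lists were chosen with earlier results of these data known. Named genes were those called, the 10 of smallest p in each direction, up to 8 of opposite responses, up to 3 candidates of largest size per list, and the complex; 1771089_at and list members outside this rule were named after their values were seen. Alternatives were each probe set's own variance, robust moderation, replicate blocks, array weights, median centring, other thresholds, probe sets for 1 sequence only and each array left out. Promoter sequences were not analysed here.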

Additional observations from a re-analysis of the deposited data

Results flagged for a closer look

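The 3 probe sets that passed the test of the difference between the strains' LatA responses were marked for a closer look because the effect of the same treatment differed by strain. The values, as the response of *set3Δ* minus that of wild type, were -1.87 for the unnamed probe set 1771089_at, -1.15 for SPAC922.03 and 1.87 for SPAPB1A11.02 (limma adjusted p = 0.0308, 0.0308 and 0.0389). For all 3 the array differences of the strains did not overlap, but they were chosen by a test of the same values, so this is no separate evidence. Single outlying arrays within the groups of 3 were not tested for.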

How the results depend on the processing

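The count of 3 called probe sets was the least stable value. It was 0 with each probe set's own variance, 8 with arrays centred on their medians (the 3 among them), 18 at an adjusted p below 0.1, and 324 with array weights (119 above and 205 below 0, weights from 0.333 to 5.403, in a fit that stopped before its tolerance). Robust moderation, no fold limit, a fold above 2 and probe sets for 1 sequence only each gave the 3. Leaving out single arrays gave 0 to 260, with 260 without wild-type DMSO replicate 1 (90 above and 170 below 0), 25 without *set3Δ* LatA replicate 3, 5 without wild-type DMSO replicate 3 and 0 or 1 without any other; the cause was not tested. Without wild-type DMSO replicate 1 the calls held 16 of 77 ribosome biogenesis genes, all above 0, 17 of 104 CESR-DN and 19 of 136 CESR-UP genes, against 5.33% of all probe sets; with array weights 11 of 332 cytokinesis genes were called (3.31%, against 6.64% of all). The 219 candidates became 394 with array weights and 133 (without wild-type DMSO replicate 3) to 438 (without wild-type DMSO replicate 1), with 400 without *set3Δ* DMSO replicate 2. Over left-out arrays the medians ranged from -0.43 to -0.069 for CESR-UP, 0.34 to 0.55 for CESR-DN and -0.12 to 0.02 for stress genes (-0.14 with array weights), whose sign turned to 0.0183 without *set3Δ* DMSO replicate 1. The difference of *hos2* ranged from -0.11 to 0.029, turning to 0.029 without *set3Δ* DMSO replicate 1 and 0.0046 without *set3Δ* LatA replicate 2, and that of *hif2* from -0.011 (without *set3Δ* LatA replicate 1) to 0.083, and was -0.0034 with array weights. The differences of the other probe sets under the naming rule kept their direction under every fit run. Medians of other lists over left-out arrays ranged from -0.07 to 0.05 (Sty1p pathway), -0.03 to 0.03 (cytokinesis), -0.06 to 0.07 (hexose transport), -0.05 to 0.16 (P-cell genes), -0.15 to -0.05 (subtelomeric cosmids), -0.21 to -0.09 (oxidative defence), -0.11 to -0.02 (septum) and 0.08 to 0.20 (septation network). Leave-one-out of single arrays for the further lists and for the CESR mean was chosen after seeing the data.

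Whether same-numbered arrays pair was not tested. The correlation of their deviations from the group means ran from -0.497 to 0.562 over 18 pairs, with 7 over 0.1. For differently numbered arrays it ran from -0.696 to 0.547. With a replicate block the count of calls was 4, 2 of them among the 3, and with a block within each strain it was 2, 1 of them among the 3; the candidates numbered 235 and 214. SPAPB1A11.02 was not called with either block (adjusted p = 0.0522 and 0.148 from limma), nor 1771089_at with the block within strain (adjusted p = 0.0515).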
